A study of Mus musculus with 42 samples.

Results

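The Irx (Iroquois) genes of the mouse comprise 6 members in 2 clusters, IrxA (chr13:71957921-73269608, build mm10) with Irx1, Irx2 and Irx4, and IrxB (chr8:91798525-92680956) with Irx3, Irx5 and Irx6. Binding events were taken as members of this set when their deposited position lay within the GENCODE span of an Irx gene or within 50 kb of it. The 21 event lists held 468 such events of 1087512 in all. Merged where neighbouring positions lay within 100 bp, they formed 124 sites, 48 at IrxA and 76 at IrxB, of 377386 sites over the genome.

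The libraries are chromatin immunoprecipitation sequencing (ChIP-seq) of mouse embryonic stem cells (Ainv15) grown as embryoid bodies (EBs), each line carrying a tagged Hox gene, inserted as a single copy at the Hprt locus, that 3 µg/mL doxycycline (Dox) switches on. The 42 samples fall into 23 groups, of which 21 have an event list. At day 3 of motor neuron differentiation (1 µM retinoic acid and 0.5 µM of the smoothened agonist SAG, 24 h of Dox) HOXC6, HOXC8, HOXC9, HOXC10, HOXA9, HOXD9, HOXC13 and 4 chimeras were profiled. HOXC6, HOXC9 and HOXC10 were also profiled at day 4 (48 h of Dox), and HOXC6 and HOXC9 in EBs after 12 h of Dox without the patterning signals. A chimera name gives the source of the N-terminus first and of the homeodomain with the C-terminus second, and the numbered forms of a kind differ in the junction. MEIS was profiled at day 3 in iHoxc6, iHoxc9 and iHoxc10 lines with V5 tags, and PBX at day 4 in Flag-tagged iHoxc9 and iHoxc10 lines. Most HOX libraries used an antibody to Flag, but the second HOXA9, HOXD9 and HOXC13 libraries used lines with an HA tag, and 1 of the 3 HOXC10 day 3 libraries used a V5 line, so these lists pool tags. The HOXC13 cDNA was human. All groups carry induced HOX protein, and the 2 control libraries (anti-Flag at day 3 and input at day 4) have no event list. No expression was measured in these libraries, so the identity of the cells was not checked here.

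Irx proteins are homeodomain transcription factors of the TALE class, to which the HOX cofactors MEIS and PBX also belong. In the ventral spinal cord Irx3 marks progenitors dorsal to the motor neuron domain and is mutually repressive with Olig2, the motor neuron progenitor factor. The genes of a cluster lie in gene-poor DNA rich in distant enhancers, and Irx3 and Irx5 are in part redundant in limb and heart.

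The sequences around the strongest event of 8 sites are given because the factors differ most clearly there, and these 8 were chosen among the named sites after their values were seen. Each is 101 bases of GRCm38, forward strand, centred on the event. Sites are named by the Irx gene and the distance of the site's midpoint from its 5′ end, positive in the direction of transcription. Capitals mark the posterior HOX motif TTTAT, the homeodomain core TAAT, the related motif TTTAC and the composite PBX and HOX motif TGATTTAT, on either strand. Motifs may overlap, and every TGATTTAT also holds TTTAT.

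Irx1 +2.50 kb (chr13:71961203-71961303): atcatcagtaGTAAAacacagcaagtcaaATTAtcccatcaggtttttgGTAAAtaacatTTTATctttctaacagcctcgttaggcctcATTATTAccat
Irx4 +25.98 kb (chr13:73286400-73286500): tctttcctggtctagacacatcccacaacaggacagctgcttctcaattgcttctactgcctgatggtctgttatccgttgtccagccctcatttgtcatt
Irx2 -33.81 kb (chr13:72594903-72595003): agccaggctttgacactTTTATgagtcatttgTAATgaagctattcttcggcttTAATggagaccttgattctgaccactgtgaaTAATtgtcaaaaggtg
Irx2 -2.62 kb (chr13:72626142-72626242): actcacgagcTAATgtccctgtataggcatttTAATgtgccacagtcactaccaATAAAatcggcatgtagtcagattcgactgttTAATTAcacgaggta
Irx6 +13.03 kb (chr8:92687320-92687420): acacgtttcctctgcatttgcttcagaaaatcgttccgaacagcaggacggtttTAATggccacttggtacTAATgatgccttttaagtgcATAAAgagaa
Irx6 +15.96 kb (chr8:92690176-92690276): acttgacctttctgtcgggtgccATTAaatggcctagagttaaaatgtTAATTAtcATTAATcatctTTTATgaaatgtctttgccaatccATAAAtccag
Irx6 +18.60 kb (chr8:92692842-92692942): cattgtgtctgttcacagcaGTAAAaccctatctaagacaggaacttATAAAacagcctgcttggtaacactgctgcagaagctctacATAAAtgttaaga
Irx6 -5.32 kb (chr8:92668802-92668902): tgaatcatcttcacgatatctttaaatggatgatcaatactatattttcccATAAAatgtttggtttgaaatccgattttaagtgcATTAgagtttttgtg

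The 40 libraries of the lists held 5.04 to 32.9 M reads, and the lists held 848 to 128388 events. Only 5 lists, those of MEIS and PBX, rest on 1 library, and the others pool 2 to 4 libraries. No list gives values per library, no error between differentiations can be given, and no test was run. Intervals below are 95% intervals for counting error only, by Wilson's method for shares and exact Poisson for read counts and event counts. They treat events as independent, although a list can hold more than 1 event in a site.

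Binding was spread over all 6 genes, with most at Irx6 and least at Irx4. The Irx6 window held 138 events in 24 sites, Irx1 94 events in 23 sites, Irx5 77 in 32, Irx3 72 in 20, Irx2 56 in 17 and Irx4 31 in 8. Of the 124 sites, 51 were held by 1 list and 35 by at least 5 lists, and 11 were held by at least 10. Of the 11 shared most widely, 5 lay at Irx6. By annotation 81 sites were intergenic, 36 intronic and 7 exonic, and 4 lay within 1 kb of a start site of a protein-coding gene. Near its own start sites (within 1 kb), Irx1 had 22 events in 17 lists, Irx3 had 1, and Irx2, Irx4, Irx5 and Irx6 had none. The Irx1 events lay near annotated start sites inside the gene, and the site nearest to its 5′ end was 1.6 kb into it.

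**Figure D1:**
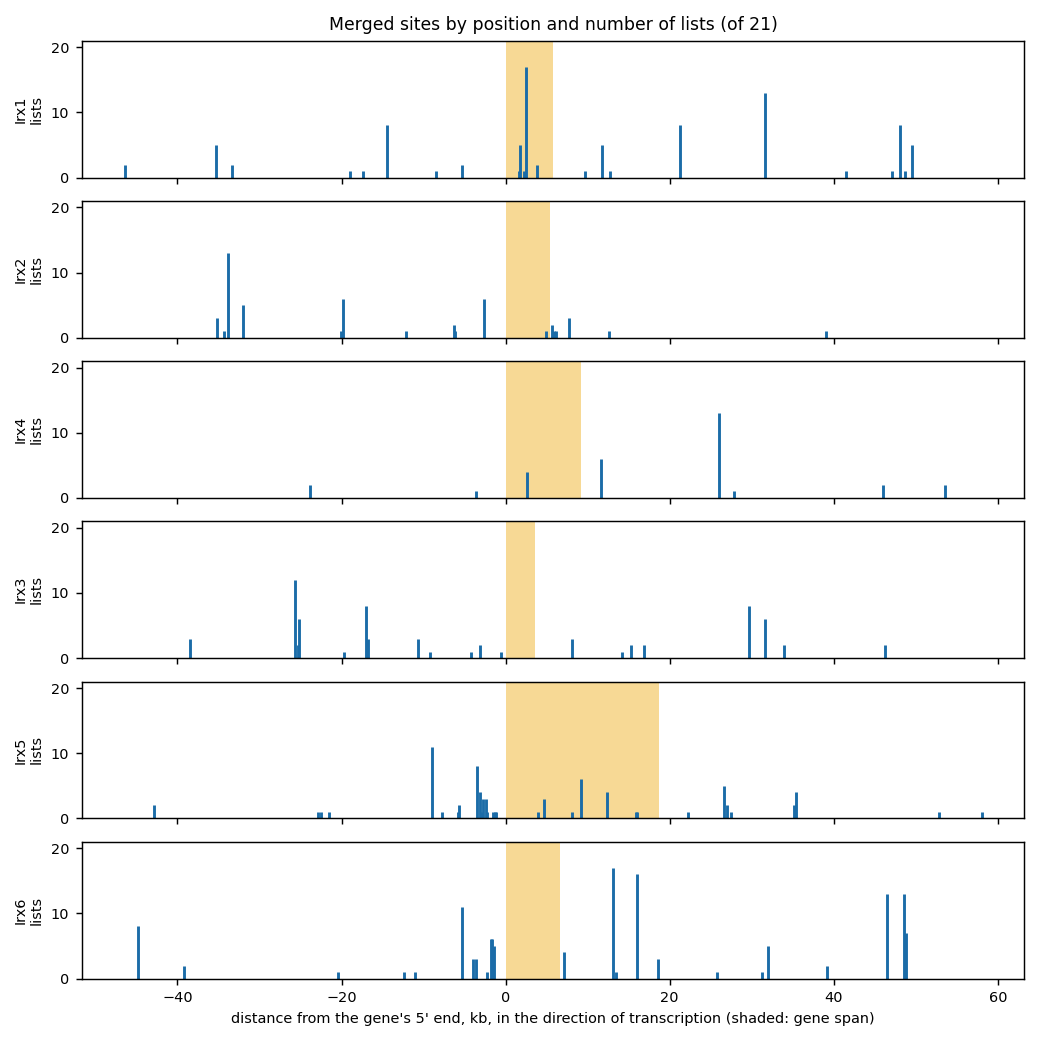
Each vertical line is a merged site, at its distance in kb from the gene's 5′ end, with height the number of lists of 21 that hold it, for the genes of IrxA (Irx1, Irx2, Irx4) and IrxB (Irx3, Irx5, Irx6). The sites held by most lists are inside Irx1 and 13.03 kb downstream of the 5′ end of Irx6, each in 17 lists.

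Members with an event were set beside all protein-coding genes in windows built the same way. HOXC6 at day 3 had an event at 5 of 6 Irx genes, against 45.5% of 21911 protein-coding genes. HOXC8 and HOXC9 had one at 6 of 6, against 65.8% and 70.4%. HOXC10 had one at 5 of 6 against 46.9%, and HOXC13 at 5 of 6 against 84.3%. The gene without an event was Irx2 for HOXC6 and HOXC10, and Irx4 for HOXC13. Irx2 also lacked events of HOXC10 at day 4 and of MEIS in iHoxc6 and iHoxc10 cells, and Irx4 lacked events of HOXC10 at day 4 and of either HOXC10:C13 chimera. Such absences were common, as 63.7% of protein-coding genes had a HOXC10 day 4 event. MEIS had one at 24.1% in iHoxc6 cells and 36.8% in iHoxc10 cells, HOXC10:C13.1 at 63.3% and HOXC10:C13.2 at 72.4%. The mean number of HOXC10 events per gene was 3.33 at the Irx genes and 1.32 over protein-coding genes, while for HOXC13 it was 4.67 and 5.71.

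Per Mb, the Irx windows held 3.13 times the genome's density of HOXC10 day 3 events (interval 1.91 to 4.83), 2.38 times that of HOXD9 (1.63 to 3.36) and 1.76 times that of HOXC9 (1.19 to 2.49). For HOXC13 the ratio was 1.01 (0.674 to 1.47) and for HOXC9 in EBs 1.34 (0.962 to 1.82). The interval lay above 1 in 11 of the 21 lists and held 1 in the other 10. The ratio was higher at IrxB than at IrxA in 19 of 21 lists, with 1 list, MEIS in iHoxc6 cells, in the other order, although the intervals of the clusters overlapped in 21 of 21 lists.

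**Figure D2:**
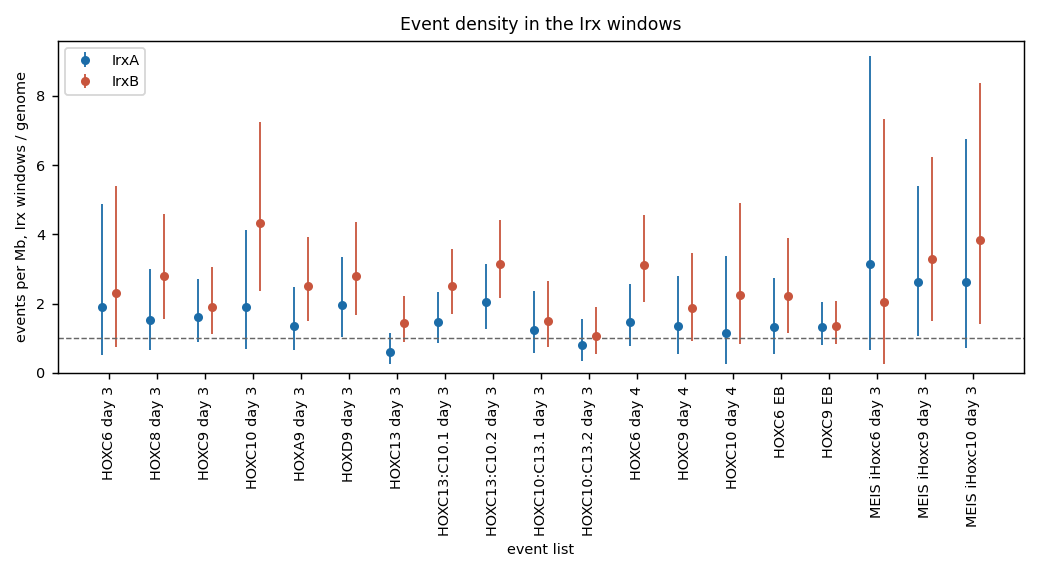
Events per Mb in the IrxA and IrxB windows divided by events per Mb over the nuclear genome, for each list except PBX, with exact Poisson 95% intervals. HOXC10 at day 3 is at 4.32 for IrxB and 1.90 for IrxA, and HOXC13 is at 1.43 and 0.59.

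The site inside Irx1 was the most widely shared of IrxA. It lies 2.5 kb into the gene, in an intron of Irx1, at chr13:71961179-71961261, and 17 lists held it. In ChIP reads per 1000000 reads of the list (RPM), HOXA9 had 17.5, HOXC9 16.6, HOXC13 15.1, HOXC10 14.2 and HOXD9 12.7, with intervals that run from 11.7 to 18.7 over the factors. HOXC10 ranked it 182 of its list by ChIP reads, HOXD9 373 and HOXA9 461. HOXC8 (4.79) and HOXC6 (3.02) had lower values, with intervals below those of the posterior factors. At day 4 HOXC9 had 4.64, HOXC10 3.47 and HOXC6 6.35, and EB HOXC9 had 18.5. EB HOXC6 and HOXC10:C13.2 had no event there, and HOXC10:C13.1 had 2.1 against 25.9 for HOXC13:C10.1. MEIS was called in all 3 lines with 2.99 to 3.54 RPM, at intervals that overlapped.

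The site 25.98 kb from the 5′ end of Irx4, past its 3′ end at chr13:73286439-73286469, had the reverse order. Irx4 is known as a gene of the heart ventricles. HOXC6 had 12.1 RPM at day 3 (interval 10.9 to 13.3), its rank 455, or 2.54% of the list's length. At day 4 HOXC6 had 24.0 RPM, its rank 1543, or 2.23%, so its place in the list was similar. HOXC8 had 9.47 and EB HOXC6 10.4. The posterior factors were lower, with HOXC9 at 3.96, HOXA9 at 3.42, HOXD9 at 2.73 and HOXC10 at 1.43 (1.11 to 1.84). No event was called for HOXC13 or for either HOXC10:C13 chimera, while HOXC13:C10.1 had 7.52 and HOXC13:C10.2 4.54. The 101 bases shown for this site hold none of the 4 motifs in capitals.

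A pair of sites near Irx2 separated HOXC9 and HOXC13. Irx2, the neighbour of Irx1 in IrxA, had no event of HOXC6 or HOXC10 at day 3. The site 33.8 kb before the 5′ end spans 235 bp and held a pair of summits. At the summit of the sequence shown, HOXC9 had 9.31 RPM, EB HOXC9 18.6 and HOXC13:C10.1 16.8, against 3.68 for HOXC13 (3.21 to 4.22), 2.32 for HOXA9 and 1.15 for HOXD9. At the other summit HOXC9 had 10.5 (9.62 to 11.4) and HOXC13 2.67 (2.26 to 3.12). It was the only Irx site that ranked in the HOXC9 day 3 top 10000 without a day 3 event of HOXC6, HOXC8 or HOXC10. Only 7 HOXC9 day 3 Irx events ranked in that top 10000, and the number of such sites over the genome was not counted. HOXC6 had 1.66 RPM at this site at day 4 and 2.43 in EBs. At 2.6 kb before Irx2, HOXC13 and EB HOXC9 both had 10.7, and the HOXC10:C13 chimeras had 5.61 and 5.6. At that site HOXC9 had 1.48 and HOXC13:C10.1 1.06, and no other list had an event.

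Past the 3′ end of Irx6, a gene expressed in retinal bipolar cells, lay a pair of sites held by many lists. At 13.03 kb from the 5′ end, held by 17 lists, HOXC13:C10.1 had 27.2 RPM, HOXC13:C10.2 22.3, HOXC9 16, HOXC10 7.19 and HOXA9 7.06, against 0.889 for HOXC13. At 15.96 kb, held by 16 lists, HOXC13:C10.2 had 29.8, HOXC9 15.4, HOXC13:C10.1 15.1 and HOXC10 7.43, and HOXC13 had 0.875. Both chimeras with the HOXC10 homeodomain had higher RPM there than HOXC10, and the chimeras with the HOXC13 homeodomain had 1.14 to 1.93 across the pair. The signal fraction was 0.43 for HOXC13:C10.1, 0.355 for HOXC13:C10.2 and 0.097 for HOXC10. By rank at 13.03 kb HOXC13:C10.1 was at 1.77% of its list, HOXC13:C10.2 at 1.86% and HOXC10 at 4.85%. At 15.96 kb HOXC13:C10.2 was at 0.998%, but HOXC10 at 4.43% was ahead of HOXC13:C10.1 at 4.80%. MEIS in iHoxc9 cells had 19.8 RPM at the 15.96 kb site (17.1 to 22.8), against 4.94 in iHoxc10 cells and 3.77 in iHoxc6 cells. Each value rests on 1 library, and RPM also moves with the list's signal fraction, in that order 0.238, 0.119 and 0.077. A difference between the lines was not tested.

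Just beyond, at 18.60 kb, only HOXC13 and the HOXC10:C13 chimeras had events. HOXC13 had 16.6 RPM (15.5 to 17.7), HOXC10:C13.2 1.94 and HOXC10:C13.1 0.853. The site 5.3 kb before Irx6 is 238 bp wide and held more than 1 summit. At the summit of the sequence shown, HOXC13:C10.2 had 12.4, HOXC13:C10.1 8.86, HOXC10:C13.1 4.82, HOXC10:C13.2 4.32, HOXC9 3.78, HOXC13 1.58 and HOXC10 1.08.

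**Figure D3:**
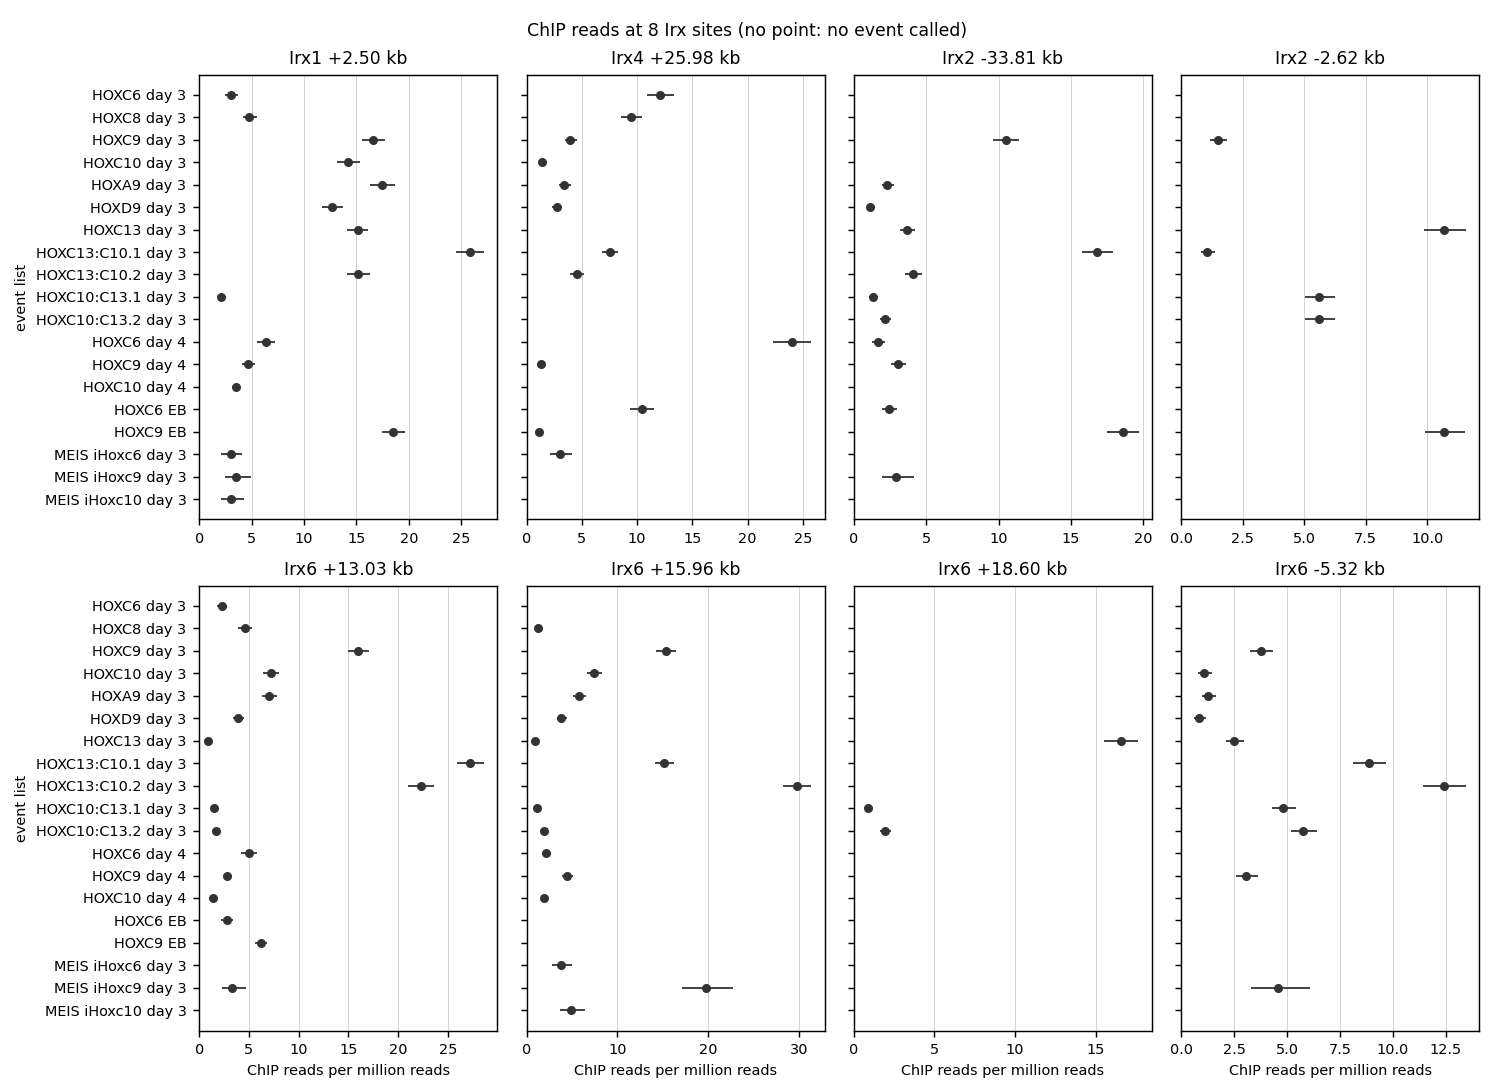
ChIP reads in RPM (x axis) at the 8 sites whose sequences are shown, for the HOX and MEIS lists (y axis), with exact Poisson 95% intervals, for the event with the most reads where a list has several in a site. HOXC6 lists are highest at Irx4 +25.98 kb, HOXC13 at Irx6 +18.60 kb, and a HOXC13:C10 chimera at the other Irx6 sites.

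Other named sites follow. At 31.6 kb into the direction of transcription from Irx1, in an intron of Gm40999, HOXC10 had 5.81 RPM, HOXC13:C10.2 11.2, and MEIS 9.19, 8.78 and 6.34 in iHoxc10, iHoxc9 and iHoxc6 cells, its highest value at IrxA in all 3 lines. At 48.6 kb from Irx6, HOXC9 had 8.22, HOXC10 6.25, HOXD9 5.66 and HOXC6 1.45. The sites 9.0 and 3.5 kb before Irx5 both lay in introns of the noncoding gene Crnde. At 9.0 kb before, HOXC13:C10.2 was highest at 8.01, with HOXC6 at day 4 at 7.97. At 3.5 kb before, HOXC9 at day 4 was highest at 9.85, with HOXC13:C10.1 at 9.77. At 25.7 kb before Irx3 the 12 lists all lay between 1.19 and 4.53, with summits up to 173 bp apart.

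**Figure D4:**
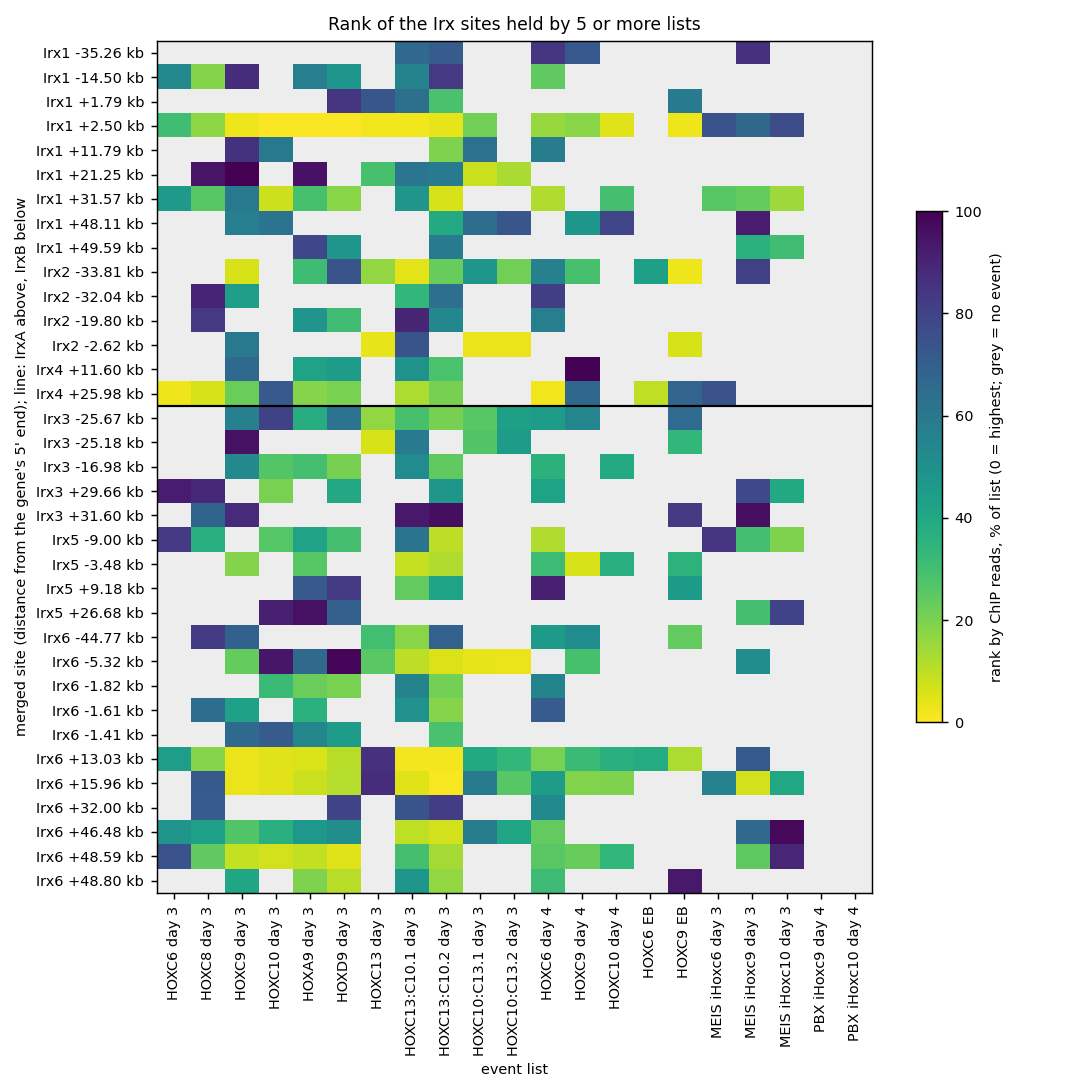
Rank by ChIP reads as a percent of the list's length (colour, 0 being the highest rank; grey, no event) for the 35 sites held by at least 5 lists (y axis) in the 21 lists (x axis). The Irx1 +2.50 kb row is near the top in the posterior HOX lists, and the Irx4 +25.98 kb row in the HOXC6 lists.

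The sharing of Irx events between lists was compared with sharing over the whole lists, since long lists hold more of any other. Sharing means an event of the other list within 100 bp. In all, 55 shares were computed, and the share over the whole list lay inside the Irx interval in 48 of them, above it in 1 and below it in 6. With both lists of a pair shortened to the length of the shorter one, 5 of these 7 stayed outside the interval and 2 (HOXC10 in HOXC9 and HOXC13 in HOXC9) did not. At equal length 9 of all 55 shares lay outside, because others moved out. These were HOXC10:C13.1 in HOXC13 (55.0%, 34.2% to 74.2%, against 27.1%), HOXC10 and HOXC9 each in MEIS of iHoxc10 cells, and EB HOXC6 in HOXC6 at day 3. In each of them the Irx share was the higher. No adjustment was made for this number of shares. Many shares use the same lists, so they are not independent.

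Among the posterior factors, the shares of HOXC9 and HOXC10 turned with the length of the lists. Of 20 HOXC10 events 12 (60%, 38.7% to 78.1%) had a HOXC9 event, against 81.3% of all HOXC10 events, and this is the 1 share whose interval lay below the whole list's value, a difference that was not tested. In the other direction 13 of 31 HOXC9 events (41.9%) had a HOXC10 event, against 30.4%. At equal length the values were 7 of 20 (35.0%, 18.1% to 56.7%) against 48.7%, and 8 of 11 (72.7%) against 51.0%. With 1 window per cluster HOXC10 in HOXC9 was 56 of 76 (73.7%, 62.8% to 82.3%), an interval that held 81.3%. With 20 kb flanks it was 8 of 14 (57.1%, 32.6% to 78.6%) and with 100 kb flanks 24 of 40 (60%, 44.6% to 73.7%). Both of these intervals lay below 81.3%. HOXC9 with HOXC13 gave 12 of 31 (38.7%) against 34.7%, and HOXC13 with HOXC9 gave 11 of 28 (39.3%, 23.6% to 57.6%) against 22.1%, or at equal length 45.0% (25.8% to 65.8%) against 27.5%. HOXC10 with HOXC13 gave 4 of 20 (20%) against 31.6%, and HOXC13 with HOXC10 gave 4 of 28 (14.3%) against 7.46%. HOXA9 with HOXD9 gave 23 of 29 (79.3%) against 66.2%.

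HOXC6 had 9 Irx events at day 3 in a list of 17900. That was 2.11 times the genome's density (interval 0.965 to 4.01). All 9 lay at HOXC8 events, against 90.2% of the list. HOXC8 with HOXC6 gave 9 of 23 (39.1%) against 37.0%, and HOXC6 with HOXC10 gave 7 of 9 (77.8%) against 50.6%.

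Between stages, all 9 HOXC6 day 3 events were found at day 4, against 92.4%, and 10 of 38 at day 4 (26.3%) were found at day 3, against 25.9%. HOXC9 gave 15 of 31 (48.4%) from day 3 to day 4, against 49.4%, and 14 of 17 (82.4%) from day 4 to day 3, against 81.8%. HOXC10 gave 7 of 20 (35.0%) against 46.4%, and 7 of 9 (77.8%) against 56.4%. In EBs HOXC6 shared 2 of 19 events (10.5%) with day 3, against 7.38%, and HOXC9 shared 12 of 41 (29.3%) against 23.5%. Of the HOXC9 day 3 events 13 of 31 (41.9%) were found in EBs, against 40.4%. These lists were called against controls of 20.6 M reads at day 3, 4.72 M at day 4 and 10.5 M in EBs. List length also changed with stage, for HOXC6 from 17900 events at day 3 to 69297 at day 4. The effect of control and length on the shares between stages was not tested. The strongest Irx3 event in EBs, 34.0 kb from its 5′ end, had 12.7 RPM for HOXC6 and 11.7 for HOXC9, and no patterned list held it.

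For both chimeras with the HOXC13 homeodomain, the interval for Irx events without a HOXC10 event lay below the whole list's share, with no test. These are the complements of their shares with a HOXC10 event, which were counted among the 6 above. Of 20 HOXC10:C13.1 events 12 (60%, 38.7% to 78.1%) lacked one, against 89.8% of the list, and of 19 HOXC10:C13.2 events 13 did (68.4%, 46.0% to 84.6%), against 92.1%. Events in the same site were counted separately. At 5.3 kb before Irx6 both chimeras had 2 events, all within 100 bp of the same HOXC10 event, which had 48.8 reads. With HOXC13 the same chimeras shared 13 of 20 (65.0%) against 49.5%, and 12 of 19 (63.2%) against 47.0%. HOXC13:C10.1 shared 13 of 47 (27.7%) with HOXC10, against 21.9%, and 15 of 47 (31.9%) with HOXC13, against 37.5%. HOXC13:C10.2 shared 18 of 54 (33.3%) with HOXC10, against 31.3%, and 11 of 54 (20.4%) with HOXC13, against 28.5%. Between the chimeras of a kind the shares were 18 of 20 (90%) against 89.6% for HOXC10:C13.1 in HOXC10:C13.2, and 37 of 47 (78.7%, 65.1% to 88.0%) against 58.4% for HOXC13:C10.1 in HOXC13:C10.2. HOXC13 shared 13 of 28 (46.4%, 29.5% to 64.2%) with HOXC10:C13.1, against 26.6%. In all, 8 sites held an event of a HOXC10:C13 chimera and none of HOXC13. Of these 4 (5.3, 33.3 and 46.4 kb before Irx1 and 39.2 kb before Irx6) were held by both HOXC10:C13 chimeras and by no other list. Neither count of sites was set beside its number over the genome. Over the whole lists, only 49.5% of HOXC10:C13.1 events and 47.0% of HOXC10:C13.2 events had a HOXC13 event, so such sites are common.

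MEIS, a cofactor that binds DNA with HOX proteins, was profiled in V5-tagged lines and compared with the lists of the same HOX factor, which come from Flag-tagged lines except for 1 V5 library of HOXC10. In iHoxc10 cells 9 of 10 (90%, 59.6% to 98.2%) had a HOXC10 event, against 53.9%, the only one of the lines whose interval lay above the whole list's share. In iHoxc6 cells the count was 4 of 5 (80.0%, 37.6% to 96.4%) against 53.8%, and in iHoxc9 cells 9 of 16 (56.2%) against 66.8%. All 10 MEIS events of iHoxc10 cells were MEIS events in iHoxc9 cells, against 75.9%. Of 31 HOXC9 events, 10 (32.3%) had MEIS in iHoxc9 cells, against 20.8%, and 6 (19.4%) had MEIS in iHoxc10 cells, against 11.0%. With both MEIS lists reduced to the length of the shorter one, the first count was 3 of 31 (9.68%) and lay below the second. The intervals, 3.35% to 24.9% and 9.19% to 36.3%, overlapped, and no share over the whole list is given at this length. PBX had 1 Irx event in all, 1.2 kb before Irx5 in iHoxc10 cells, with 22.6 reads. The PBX lists were short, with 1165 events in iHoxc9 cells and 848 in iHoxc10 cells. The paper reports that the PBX antibody gave a weak signal. The intervals of the density ratio at the Irx windows ran from 0 to 13.3 and from 0.125 to 27.6, and both held 1. With so few events in all, the count cannot show whether PBX binding at the Irx genes was low.

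**Figure D5:**
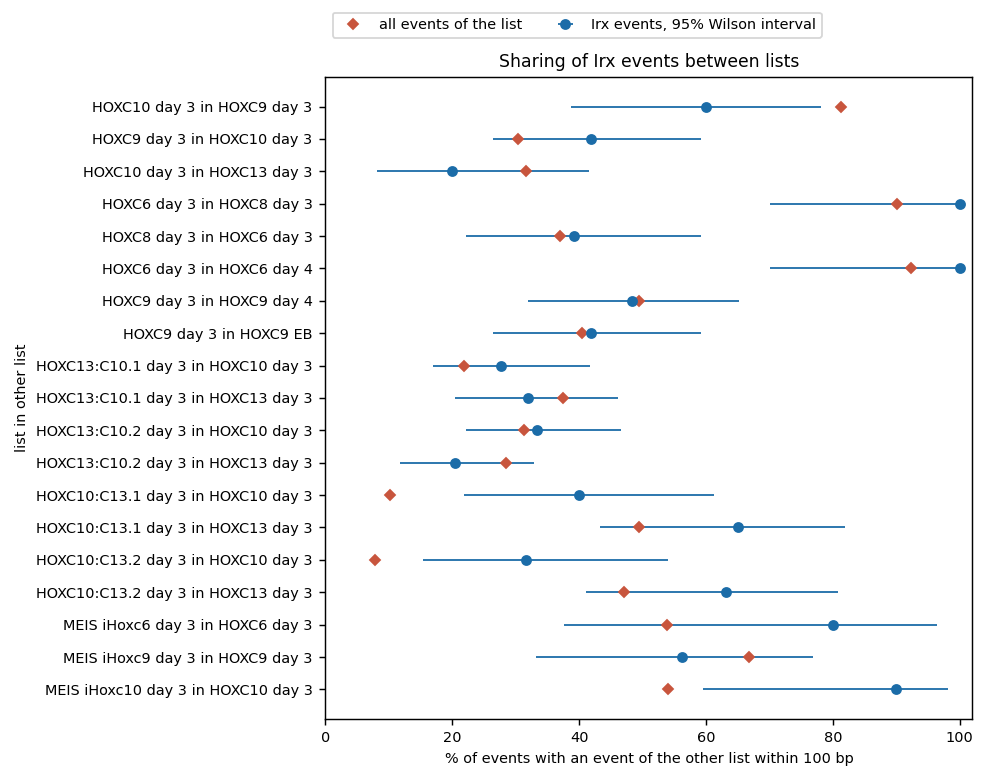
Percent of Irx events of the first list with an event of the other list within 100 bp (points, with Wilson 95% intervals) and the same over all events of the first list (diamonds), for 19 of the 55 shares. The diamond lies outside the interval for HOXC10 in HOXC9, for both HOXC10:C13 chimeras in HOXC10 and for MEIS in HOXC10.

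The share over the whole list lay inside the interval at Irx events for 78 of 80 motif shares, but the intervals were wide. The exceptions were TGATTTAT for HOXC6 at day 4, within 50 bp of 5 of 38 events (interval 5.75% to 27.3%) against 4.70%, and TAAT at the single PBX event. TTTAT, the posterior HOX motif, lay within 50 bp of 20 of 31 HOXC9 day 3 events (64.5%, 46.9% to 78.9%), against 62.4% of the list. TAAT lay within 50 bp of 32 of 38 HOXC6 day 4 events (84.2%, 69.6% to 92.6%), against 75.0%. For HOXC9 at day 3, TTTAC lay within 50 bp of 9 of 31 events (29.0%, 16.1% to 46.6%) against 27.7%, and TGATTTAT within 50 bp of 2 of 31 (6.45%, 1.79% to 20.7%) against 5.93%.

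Another gene list was counted in the same windows. The partners of Irx3 in the ventral cord (Olig1, Olig2, Nkx2-2, Nkx2-9, Nkx6-1, Nkx6-2, Pax6, Dbx1 and Dbx2) had a HOXC9 day 3 event at 9 of 9 genes, against 70.4% of protein-coding genes, and a HOXC10 event at 9 of 9, against 46.9%. Their median counts of events were 6 and 3, those of the Irx genes 4.5 and 3, and those of all protein-coding genes 1 and 0.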

How the data were processed

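Values were read from the event lists the authors deposited, 1 for each of 21 groups. Per the study's methods, reads were aligned to mm10 with Bowtie 1.0.1 keeping single best hits, and MultiGPS called events over pooled libraries against a control. The submitters' notes also name Picard 2.8.2 and edgeR 3.22.5. For each event the authors deposited an estimated count of ChIP reads and of control reads, a log2 fold over control and a log2 q-value, the highest q-value being 0.001. The score column of the deposited tracks was used only to check positions, which matched in 21 of 21. Columns of the authors' comparisons between conditions were not used.

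Windows used GENCODE M21, and all 416 deposited sequences of Irx events were found in GRCm38. Events were ranked by ChIP reads. RPM values divide by the list's total reads and so also move with the signal fraction (0.008 to 0.527). Overlaps used 100 bp, and functions were checked on simulated positions. Python 3.11.15, numpy 2.4.6, pandas 2.3.3 and scipy 1.17.1 were used. Named sites were, per cluster, the 5 in most lists, each list's highest event, the event nearest a start site, HOXC10:C13 sites without HOXC13 and HOXC9 top 10000 sites without HOXC6, HOXC8 or HOXC10 at day 3. Members and lists were chosen with earlier results of these data known. A further gene list is not reported here. Alternatives are given in the closing section.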

Additional observations from a re-analysis of the deposited data

How the results depend on the processing

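Of 84 alternative values for 16 results, 64 stayed within the main value's interval (or within 1.5 times a site count) and 20 moved. Sites at IrxA numbered 48, and 30 with 20 kb flanks, 88 with 100 kb, 205 in 1 window per cluster, and 10 in the top 10000 by reads and 10 by q-value. Sites at IrxB numbered 76, and 147 with 100 kb, 225 in 1 window per cluster, 21 by reads and 20 by q-value. With lists shortened to equal length, HOXC10 in HOXC9 was 35.0%, HOXC9 in HOXC10 72.7% (71.4% for its top 10000), HOXC8 in HOXC6 was 77.8%, HOXC9 day 3 in day 4 66.7%, HOXC13:C10.1 in HOXC10 61.5% and HOXC9 with MEIS of iHoxc9 cells 9.68%. HOXC10:C13.1 in HOXC13 was 83.3% with 20 kb flanks. TTTAT at HOXC9 events was 83.9% within 100 bp and 87.1% as TTAT, and TAAT at HOXC6 day 4 events was 15.8% as TAATTA. Fewer or more events enter by construction. Leaving out a replicate could not be run, because each list pools its libraries. No paired analysis was possible because the lists carry no value per replicate and no result comes from a test. Depth limits statements on absence: a site without an event may hold reads under the caller's threshold.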

Other observations

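Among 19578 protein-coding genes with an event in at least 5 lists, those whose read pattern over the 21 lists was most like that of IrxA were Wdr7 (Pearson r = 0.963), Nckap5 (0.957) and Fbxw7 (0.957). Those most like IrxB were Pex14 (0.919), Mllt10 (0.907) and Zswim5 (0.893). The measure was log2(1 + reads at events in the gene's window per 100000 reads at events of the list), and the points share the lists' depth and length.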
